A study of Gallus gallus with 4 samples.

Results

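The net difference over 24 hr of recovery from form deprivation was described as the log2 expression of the FD 24 hr array minus that of the FD 0 hr array, with 1 array on each side. A gene's value was the median of the probe sets annotated to exactly 1 gene symbol. Of 13051 genes measured, 6101 had a log2 mean over the 4 arrays of the series of more than 6.28, which was the 60th percentile among means of probe sets, and genes under this limit are called dim. Of the 6101, 4542 had probe sets that all moved the same way and are the genes described here. Of these, 2983 had a single probe set, for which moving the same way asks only that the value was not identical on both arrays, and 1559 had 2 or more. At the limit, FIGNL2 (-0.255) and MAU2 (0.525) lay just inside, and PRKAB2 (0.45) and GFRA4 (-0.14) just outside.

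Each array held RNA pooled from the right eyes of 5 Leghorn/New Hampshire chicks labelled male. It was taken from retina, retinal pigment epithelium (RPE) and choroid together. On the control array the level of a gene of the female W chromosome, given below, is at odds with that label. The FD 24 hr chicks wore an occluder and then had 24 hr of normal vision, the FD 6 hr chicks had 6 hr, and the FD 0 hr chicks were sampled with none. The control chicks wore no lens. The sample labels give 7 days of form deprivation and the treatment protocol gives 10. The labels give an age of post-hatch day 12 for the FD 24 hr chicks, against day 11 for the FD 0 hr, FD 6 hr and control chicks, so that 24 hr of recovery cannot be told apart from 1 day of age. With 1 pool per condition there is no replicate error, no test was possible, and every difference is between pools. In RNA from mixed tissue, fewer cells of a type and less RNA per cell cannot be told apart.

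A translucent occluder removes sharp images from the retina, and the growing chick eye then elongates and becomes myopic. When vision is restored, elongation slows, the choroid thickens and refraction returns towards normal within days. The signal starts in the neural retina, where photoreceptors, amacrine cells and other interneurons read the image, and is passed through the RPE, which moves ions and fluid, to the vascular choroid and the sclera. Genes typical of the RPE, of cones and of connective tissue were well above the dim limit on both arrays. RPE65, the isomerase of the RPE visual cycle, stood at 12.75 at FD 24 hr and 13.09 at FD 0 hr, GNAT2, the cone transducin, at 12.44 and 12.16, and DCN (decorin), a proteoglycan of connective tissue, at 11.22 and 11.78.

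Some measures of the arrays themselves moved with this comparison. The poly-A controls, bacterial transcripts added before labelling, differed between FD 24 hr and FD 0 hr by -1.03 (lys) to -2.44 (dap) on the log2 scale. The controls of hybridisation, of which cre and bioC had the smallest and the largest difference, differed by -0.51 to -2.765. All of these added controls were higher in control and at FD 0 hr than at FD 6 hr and FD 24 hr. From control to FD 24 hr, dap averaged 8.85, 9.54, 7.46 and 7.11, and bioC 9.92, 9.75, 6.93 and 6.99. The comparison of FD 24 hr with FD 0 hr crosses this split, and that of FD 24 hr with FD 6 hr does not. The β-actin control probe sets averaged 11.61 at FD 24 hr and 10.61 at FD 0 hr, and the gap between the 3′ and 5′ ends of this transcript was 2.85 at FD 24 hr, against 3.72 at FD 0 hr. For EF1α the gap was 1.21 in control and 1.41, 1.12 and 1.30 after 0, 6 and 24 hr. GAPDH averaged 13.95 at FD 24 hr and 13.86 at FD 0 hr, with a gap of 0.205 on both. HINTW, a gene of the female W chromosome, was at 5.34 at FD 24 hr and 5.52 at FD 0 hr but at 9.36 on the control array, which is labelled male. The part of these differences in the results below was not tested.

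Of the 4542 genes, 2264 (49.8%) had a higher and 2278 (50.2%) a lower level at FD 24 hr than at FD 0 hr, and the median difference was -0.01. Differences lay within 0.5 of no difference for 74.2% of the genes, and between -0.81 and 0.71 from the 5th to the 95th percentile. A difference of 1, which is 2-fold, was reached by 93 genes (2.05%) that were higher and 136 genes (2.99%) that were lower. Among all 6101 genes above the dim limit the shares were 1.75% and 2.43%. The genes described were also put in 5 equal bins by their span on the genome. The bin of the longest genes held 33 higher and 30 lower by 1 or more. Each other bin held 13 to 17 higher and 21 to 36 lower. With FD 6 hr in place of FD 0 hr, the rule on probe sets was applied anew to that difference and gave 4526 genes. Of these, 17 were higher and 55 lower by 1 or more, of which 9 and 30 were among the 93 and 136. Where a gene had several probe sets, their differences had a pooled SD of 0.36 (3081 genes), so that a gene at 0.3 is within the spread between probe sets. This SD comes from the same 2 arrays, holds no variation between arrays, pools or chicks, and does not exist for genes with 1 probe set. Among genes past 1 that had several probe sets, the median gap between probe sets was 0.89.

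**Figure D1:**
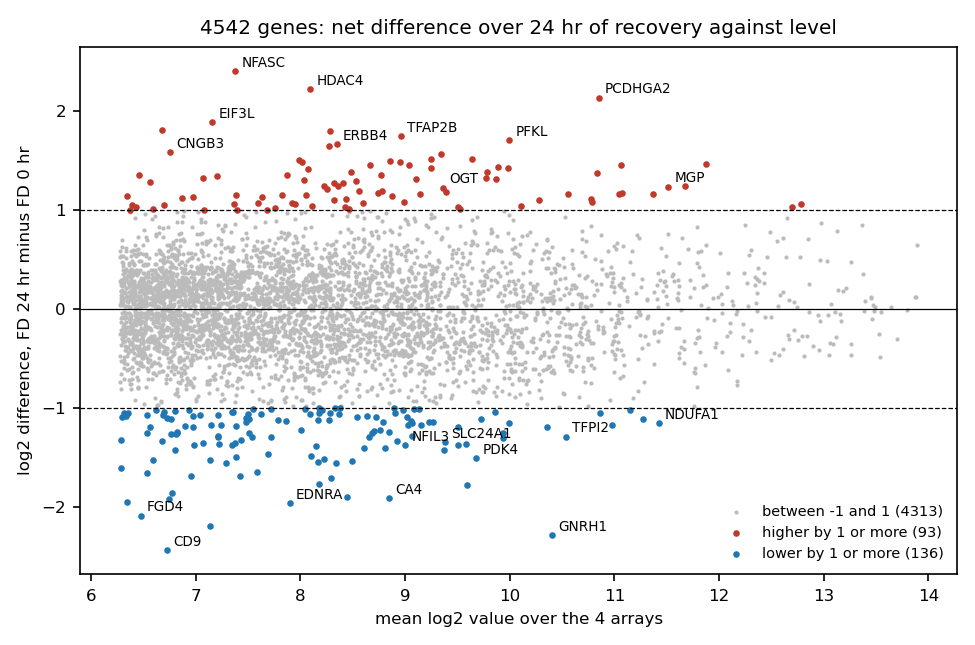
Each point is 1 of the 4542 genes, with its mean log2 value over the 4 arrays on the horizontal axis and its log2 difference, FD 24 hr minus FD 0 hr, on the vertical axis. The 93 genes higher by 1 or more are red, the 136 lower by 1 or more are blue, and both groups run across the range of levels.

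The 93 higher genes had a median level of 9.03 in control and 7.59, 8.49 and 8.89 after 0, 6 and 24 hr of recovery. In 88 of them FD 0 hr was the lowest of the 4 arrays, and in 64 the FD 24 hr level was within 0.5 of control. The 136 lower genes had medians of 7.63, 8.65, 8.16 and 7.40 in the same order of arrays, with FD 0 hr the highest of the 4 in 116 and FD 24 hr within 0.5 of control in 85. FD 24 hr was the highest of the 4 in 34 of the 93 and the lowest of the 4 in 73 of the 136. FD 6 hr lay between FD 0 hr and FD 24 hr in 87 of the 93 and in 115 of the 136. Among all the genes described, FD 0 hr was the lowest array in 72.8% of those higher at FD 24 hr and the highest in 62.8% of those lower. Since the 93 and 136 genes were chosen by the difference between FD 0 hr and FD 24 hr, these positions are largely set by that choice and support nothing about recovery. Larger values at FD 0 hr also let a gene pass the dim limit, since 22 of the 136 lower genes were themselves under 6.28 at FD 24 hr, and 13 of the 93 higher genes were under it at FD 0 hr.

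Among the higher genes with the largest differences were several known from neurons, from the cell surface and from signalling. PCDHGA2, a clustered protocadherin that gives neurons an adhesive identity, had 11.70 in control and 9.40, 10.76 and 11.54 after 0, 6 and 24 hr, a difference of 2.14. TFAP2B, a transcription factor of amacrine and horizontal cells, had 10.02, 7.62, 8.82 and 9.37 in the same order and differed by 1.75. ERBB4, a receptor for neuregulins, had 9.62, 6.91, 8.28 and 8.58 and differed by 1.67. In all 3 the FD 0 hr array was the lowest and most of the difference had appeared by FD 6 hr.

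NCS1, a neuronal calcium sensor, was at 8.84 at FD 24 hr and 7.19 at FD 0 hr, and NEFL, the light neurofilament chain, at 10.22 and 8.70. CNGB3, a subunit of the cone cyclic nucleotide-gated channel, was at 7.47 at FD 24 hr and 5.88 at FD 0 hr. At FD 24 hr NEFL differed from control by 0.08, NCS1 by -0.48 and CNGB3 by 0.59. IQSEC3, an exchange factor for ARF GTPases at inhibitory synapses, was measured by 2 probe sets with nearly the same difference, 1.5 and 1.52. PFKL, the liver form of phosphofructokinase, was higher by 1.71, and CMIP and FBRSL1 by 1.80 and 1.81. TFG, a protein of export from the endoplasmic reticulum, was higher by 1.57, though its 3 probe sets ran from 0.32 to 1.57. The largest positive differences, those of NFASC (2.41) and HDAC4 (2.23), were of the same form, with FD 24 hr at -0.13 and 0.31 from control.

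A few of the 93 genes did not follow this form. At FD 24 hr, 5 of them were above control by 1 or more. MGP, the matrix Gla protein that inhibits calcification, had 10.55 in control and 11.09, 12.08 and 12.33 after 0, 6 and 24 hr. OGT, the enzyme that attaches N-acetylglucosamine to intracellular proteins, had 8.85, 8.97, 9.42 and 10.20, though its 3 probe sets ran from 0.20 to 1.23. EIF3L, a subunit of the initiation factor eIF3, had 7.08, 6.44, 6.78 and 8.33. AVD, an avidin, and LOC101752215 were the others, at 7.47 and 7.17 at FD 24 hr against 6.47 and 6.12 at FD 0 hr. LOC101752215 was under the dim limit of 6.28 at FD 0 hr and in control, at 5.95. AVD is on the Z chromosome, and HINTW was high on the control array. The part of sex in the gap of AVD to control was not tested. In contrast, ERBB4, MDGA2 and SMARCA4, the ATPase of the BAF chromatin remodelling complex, still differed from control by -1.04, -1.01 and -1.46 at FD 24 hr.

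**Figure D2:**
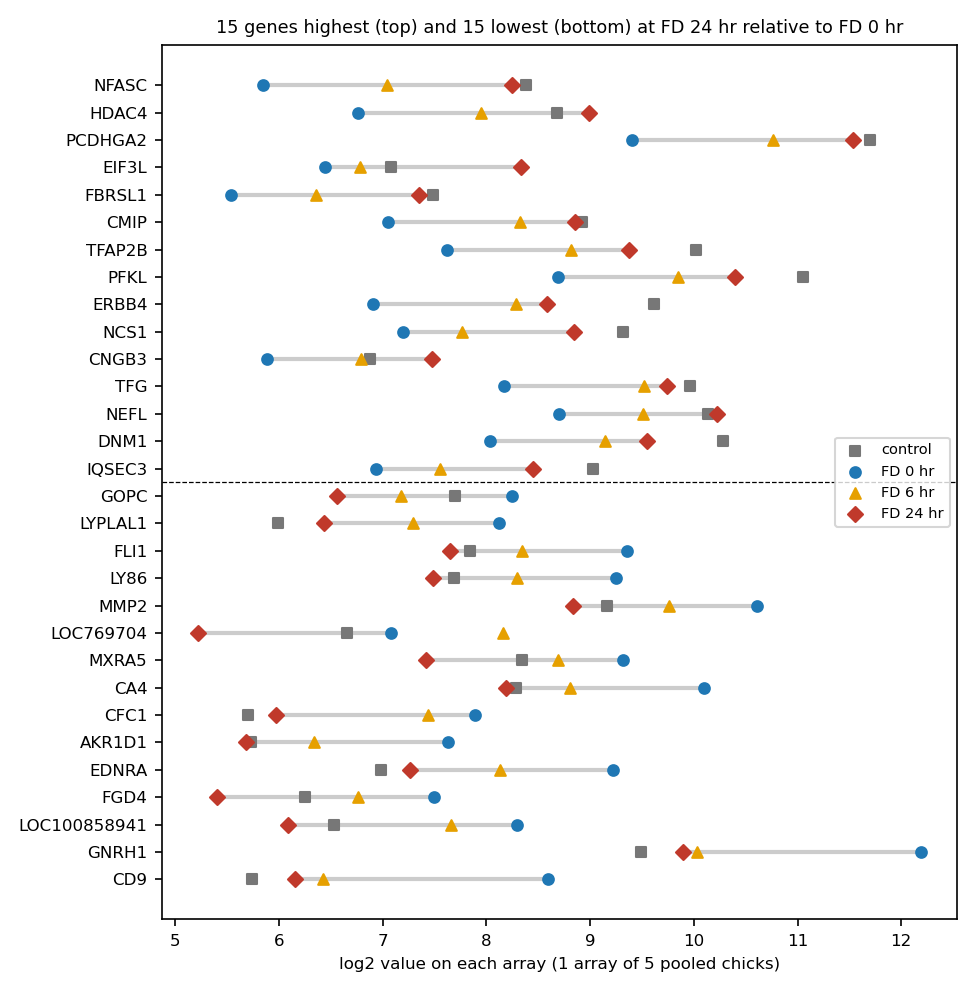
Log2 value on each of the 4 arrays for the 15 genes with the largest positive difference (top) and the 15 with the largest negative difference (bottom), with a grey bar from FD 0 hr to FD 24 hr. In the upper set FD 0 hr is leftmost in every gene, and in the lower set it is rightmost in every gene except LOC769704, which is highest at FD 6 hr.

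The largest negative difference was that of CD9, a tetraspanin of the cell surface, at 6.15 at FD 24 hr and 8.59 at FD 0 hr, a difference of -2.44. GNRH1, the precursor of gonadotropin-releasing hormone, was at 9.90 at FD 24 hr and 12.19 at FD 0 hr (-2.29), and LOC100858941, on the Z chromosome, at 6.09 and 8.29 (-2.20). In CD9 and GNRH1 most of the difference was present by FD 6 hr, and in LOC100858941 most of it came later. CD9 and LOC100858941 were under the dim limit of 6.28 at FD 24 hr. CD9 was under it in control too, at 5.74, and its FD 0 hr value raised the mean by which it passed. The endothelin receptor EDNRA was at 7.26 at FD 24 hr and 9.22 at FD 0 hr (-1.96), MMP2 (gelatinase A), which degrades matrix, at 8.83 and 10.61 (-1.78), and LYPLAL1, a lysophospholipase-like protein, at 6.43 and 8.12 (-1.69).

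CA4, a membrane carbonic anhydrase of capillary endothelium, had 8.28 in control and 10.10, 8.81 and 8.19 after 0, 6 and 24 hr. FLI1, an endothelial and blood cell transcription factor, had 7.84, 9.36, 8.34 and 7.65, and CDH5, the cadherin of endothelial junctions, had 8.09, 9.44, 8.54 and 7.90. These 3 genes were highest at FD 0 hr and at FD 24 hr were within 0.2 of control. LY86, a partner of a Toll-like receptor on macrophages and B cells, was at 7.48 at FD 24 hr and 9.25 at FD 0 hr, with 7.69 on the control array. LY86 does not stand for its list, since macrophage markers were higher in 4 of the 8 described and 11 of 22 measured. Endothelial markers, which include FLI1 and CDH5, were lower in 5 of 8 described and 17 of 23 measured.

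TNFRSF11B (osteoprotegerin), a decoy receptor for RANKL, was at 5.67 at FD 24 hr and 7.33 at FD 0 hr, and IL1RL1, the receptor for interleukin 33, at 5.86 and 7.39. Both IL1RL1 probe sets were lower by more than 1. MXRA5, a secreted matrix protein, was at 7.42 at FD 24 hr and 9.32 at FD 0 hr, and FGD4, an exchange factor for the GTPase CDC42, at 5.40 and 7.49. CFC1, a co-receptor for NODAL, was at 5.97 at FD 24 hr and 7.89 at FD 0 hr. AKR1D1, the steroid reductase that acts in bile acid synthesis, was at 5.68 at FD 24 hr and 7.63 at FD 0 hr. From control, MXRA5 and FGD4 differed at FD 24 hr by -0.92 and -0.85, and AKR1D1 by -0.05. TNFRSF11B, IL1RL1, FGD4, CFC1 and AKR1D1 were under the dim limit of 6.28 both at FD 24 hr and in control. Their FD 0 hr values, which the difference uses, raised the means by which they passed.

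At FD 24 hr, 14 of the 136 genes were under control by 1 or more. VASH2, a vasohibin that removes tyrosine from tubulin, had 7.67 in control and 7.70, 7.02 and 6.17 after 0, 6 and 24 hr. SEMA3A, a secreted repellent of axons, had 7.79, 8.00, 7.67 and 6.70, and FRZB, a secreted Wnt antagonist, had 8.68, 8.46, 8.25 and 7.44. CYTL1, a secreted protein of cartilage, had 9.45, 9.12, 8.59 and 7.90. Each of the 4 was lowest at FD 24 hr and within 0.35 of control at FD 0 hr. The others were BCAR1, CLEC3B, FAM134B, FIGN, GOPC, LOC769704, NFIL3, PDK1, SECISBP2L and SLC24A1.

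In 4 of the 136 genes the FD 24 hr level was still above control by 1 or more. GSTA3, a glutathione S-transferase, had 5.28 in control and 8.47, 6.76 and 7.39 after 0, 6 and 24 hr, with its lowest level of recovery at FD 6 hr. ANXA1 (annexin A1), a mediator of glucocorticoid action, had 6.17, 8.70, 7.71 and 7.45, and ATP6V0D2, part of the vacuolar ATPase, had 6.17, 8.59, 7.72 and 7.26. CH25H, which makes 25-hydroxycholesterol, had 5.97, 8.07, 8.35 and 7.03. All 4 were above control at FD 24 hr, by 1.06 (CH25H) to 2.11 (GSTA3), but in control all 4 were under the dim limit of 6.28. ANXA1 is on the Z chromosome, and the W-linked gene HINTW was high on the control array. The part of sex in the gap of ANXA1 to control was not tested. The 3 probe sets of ATP6V0D2 had differences between FD 24 hr and FD 0 hr of -1.33 to -0.17.

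By cell type, markers of cones, of amacrine and horizontal cells and of ganglion cells were nearly all higher at FD 24 hr. The rule leaves out dim genes and genes whose probe sets disagreed, so a list described here is part of the list measured. Values for the list measured are given for many lists, and where they are not given they may still differ. Counts are read beside the 49.8% of all genes described that were higher, with no test. Counts of a list measured are read beside all 13051 genes measured, of which 6275 were higher and 6606 lower, with a median of -0.01. The genes described that had 2 or more probe sets had a median of 0.09, so lists rich in such genes start from a higher level. Of 14 cone phototransduction genes described, 13 were higher, with a median of 0.60, and of all 16 measured 14 were, with a median of 0.595. The blue-sensitive cone pigment OPN2SW had 11.86 in control and 10.14, 10.99 and 11.31 after 0, 6 and 24 hr. GUCA1A, an activator of guanylate cyclase, had 10.73, 9.985, 10.385 and 11.145, and the cone arrestin ARR3 had 10.035, 8.885, 9.18 and 9.92. PDE6C, the catalytic subunit of the cone phosphodiesterase, was the single lower gene, at 11.27 at FD 24 hr and 11.41 at FD 0 hr, while its inhibitory subunit PDE6H was at 11.56 and 10.97.

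Of 5 rod phototransduction genes, 2 were higher, and the median was -0.25, whereas all 10 measured had a median of 0.04. PDE6G, the inhibitory subunit of the rod phosphodiesterase, was at 9.09 at FD 24 hr and 8.16 at FD 0 hr. SLC24A1, the rod sodium, calcium and potassium exchanger, had 9.40 in control and 9.75, 9.97 and 8.40 after 0, 6 and 24 hr, so that its difference of -1.35 appeared after 6 hr. SLC24A2, the exchanger of cones, was at 11.18 at FD 24 hr and 10.43 at FD 0 hr.

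Each of the 12 amacrine and horizontal cell genes described was higher, with a median of 0.69, and of 19 measured 18 were, with a median of 0.52. SLC6A9, the glycine transporter of glycinergic amacrine cells, had 10.72 in control and 8.79, 9.80 and 10.23 after 0, 6 and 24 hr. CALB2 (calretinin), a calcium buffer, had 12.09, 10.775, 11.80 and 12.02, and both its probe sets were higher by more than 1. PAX6 was at 11.38 at FD 24 hr, against 10.63 at FD 0 hr, the vesicular GABA transporter SLC32A1 at 8.74 and 8.04, and the GABA-synthesising GAD1 at 12.44 and 12.02. None of the 12 was lower, and the smallest difference was 0.19, that of the vesicular acetylcholine transporter SLC18A3. The median of this list was 0.22 against FD 6 hr with its genes chosen anew. Over the 12 genes described, the median step from 6 to 24 hr was 0.195.

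Each of the 11 ganglion cell genes described was higher too, with a median of 0.29 and a range of 0.05 (RBPMS2) to 1.52 (NEFL). Of 16 measured 13 were higher, with a median of 0.215. THY1, a surface glycoprotein of ganglion cells and also of fibroblasts, had 10.60 in control and 8.83, 9.48 and 10.22 after 0, 6 and 24 hr, and NEFM, the medium neurofilament chain, had 9.80, 7.98, 8.55 and 8.95. Of 15 Müller glia genes 10 were higher and the median was 0.12. GPR37L1, a receptor of glia, had 9.31, 7.34, 8.54 and 8.73 and ID1, a target of BMP signalling, had 9.17, 8.08, 9.02 and 9.22. The glial glutamate transporter SLC1A3 was at 10.255 at FD 24 hr and 10.855 at FD 0 hr, and the small heat shock protein CRYAB at 9.57 and 10.37, so that glial genes went both ways. Of 5 oligodendrocyte genes 4 were higher, with a median of 0.26, led by CNP (1.01), an enzyme of myelin. Of 8 measured 5 were, with a median of 0.17.

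Lists of synaptic genes differed among themselves. Of 11 synaptic vesicle genes, 9 were higher, with a median of 0.43, but of 27 measured 15 were, with a median of 0.21. DNM1 (dynamin 1), which cuts endocytic vesicles from the membrane, had 10.285 in control and 8.03, 9.145 and 9.55 after 0, 6 and 24 hr. The α-synuclein relative SNCB was at 13.32 at FD 24 hr and 12.53 at FD 0 hr, and PCLO, a scaffold of the active zone, at 7.83 and 7.195. UNC13B and RIMS1, which prime vesicles for release, were at 8.89 and 9.78 at FD 24 hr, against 9.32 and 10.10 at FD 0 hr, and were the lower pair. Other lists were closer to the 49.8% of all genes: 4 of 7 postsynaptic scaffold and kinase genes were higher (median 0.07), 4 of 7 GABA and glycine receptors (0.14), 2 of 4 metabotropic glutamate receptors and transporters (-0.095), and 4 of 8 genes of acetylcholine signalling (0.01).

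Of 14 genes of clathrin-mediated endocytosis, 11 were higher, with a median of 0.385, and of 29 measured 21 were, with a median of 0.20. AP2M1, a subunit of the AP-2 adaptor, had 10.745, 9.065, 9.63 and 10.49 from control to FD 24 hr, but its probe sets differed by 0.37 and 2.48. DNM1 and the uncoating chaperone HSPA8 (0.72) belong to this list as well. Of 10 genes of kinesins, dyneins and microtubules, 8 were higher, with a median of 0.64 that was 0.18 against FD 6 hr, but of 29 measured 17 were higher, with a median of 0.09. The neuronal β-tubulin TUBB3 was at 7.66 at FD 24 hr and 6.6 at FD 0 hr, and TUBA1A at 13.25 and 12.375. STMN3, which destabilises microtubules, was at 8.61 at FD 24 hr and 7.83 at FD 0 hr. Each of 7 genes of neural adhesion and the axon initial segment was higher, with a median of 0.335 (0.10 over 22 measured), and 8 of 9 voltage-gated channel genes were, with a median of 0.24 (0.07 over 37 measured, 25 of them higher). KCND2, a channel of the A-type potassium current, was at 9.41 at FD 24 hr and 7.91 at FD 0 hr, with control at 9.37. KCNA2, another potassium channel of axons, was lower, with 8.33 in control and 6.18, 6.88 and 5.47 after 0, 6 and 24 hr. Its FD 0 hr and FD 24 hr values, which the difference uses, were both under the dim limit of 6.28. The control and FD 6 hr values of KCNA2 raised the mean by which it passed.

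Genes of the RPE and of pigment leaned the other way. Of 11 genes of the RPE and its visual cycle, 4 were higher and the median was -0.37, close to the -0.34 of all 15 measured. EFEMP1 (fibulin 3), a matrix protein, had 11.05 in control and 11.85, 11.46 and 10.74 after 0, 6 and 24 hr. LRAT, which makes retinyl esters, had 7.34, 7.35, 6.95 and 6.47, and RDH5, a retinol dehydrogenase, had 10.16, 9.33, 9.97 and 8.96. The retinol carrier RBP4 and the retinol receptor STRA6 were higher, at 14.22 and 10.50 at FD 24 hr against 13.57 and 9.87 at FD 0 hr.

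Of 10 melanosome genes, 3 were higher, with a median of -0.26, and of 16 measured 7 were, with a median of -0.13. GPR143, a receptor of melanosomes, was at 8.43 at FD 24 hr and 9.19 at FD 0 hr, tyrosinase (TYR) at 8.64 and 9.09, and DCT at 11.09 and 11.55. PMEL, the fibril protein of melanosomes, was higher, at 9.42 at FD 24 hr and 8.51 at FD 0 hr. This list's median was 0.02 when FD 6 hr took the place of FD 0 hr and its genes were chosen anew. Over the 10 genes described, the median step from 6 to 24 hr was 0.

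Endothelial and fibroblast markers were more often lower than higher, also among all those measured. Of 8 endothelial genes 5 were lower, with a median of -0.115, and of 23 measured 17 were, with a median of -0.15. FLI1 and CDH5 were the ones past 1. Of 8 smooth muscle genes 6 were lower, with a median of -0.135, but of 19 measured 10 were, with a median of -0.02. MYH11, the smooth muscle myosin, had 8.10 in control and 9.81, 8.91 and 8.57 after 0, 6 and 24 hr. CALD1 (caldesmon), with differences of -1.36 to -0.49 on its 4 probe sets, had 7.125, 8.69, 7.855 and 7.80. TAGLN and CSRP1 of the same list were higher, by 0.60 and 0.88. Of 10 fibroblast genes 6 were lower, with a median of -0.275, and of 28 measured 20 were, with a median of -0.27. Here COL1A1 (type I collagen) was at 10.04 at FD 24 hr and 9.26 at FD 0 hr, while COL6A1 (type VI collagen) was at 7.58 and 8.25. Macrophage genes had a median of -0.125, against 0.025 over all 22 measured.

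**Figure D3:**
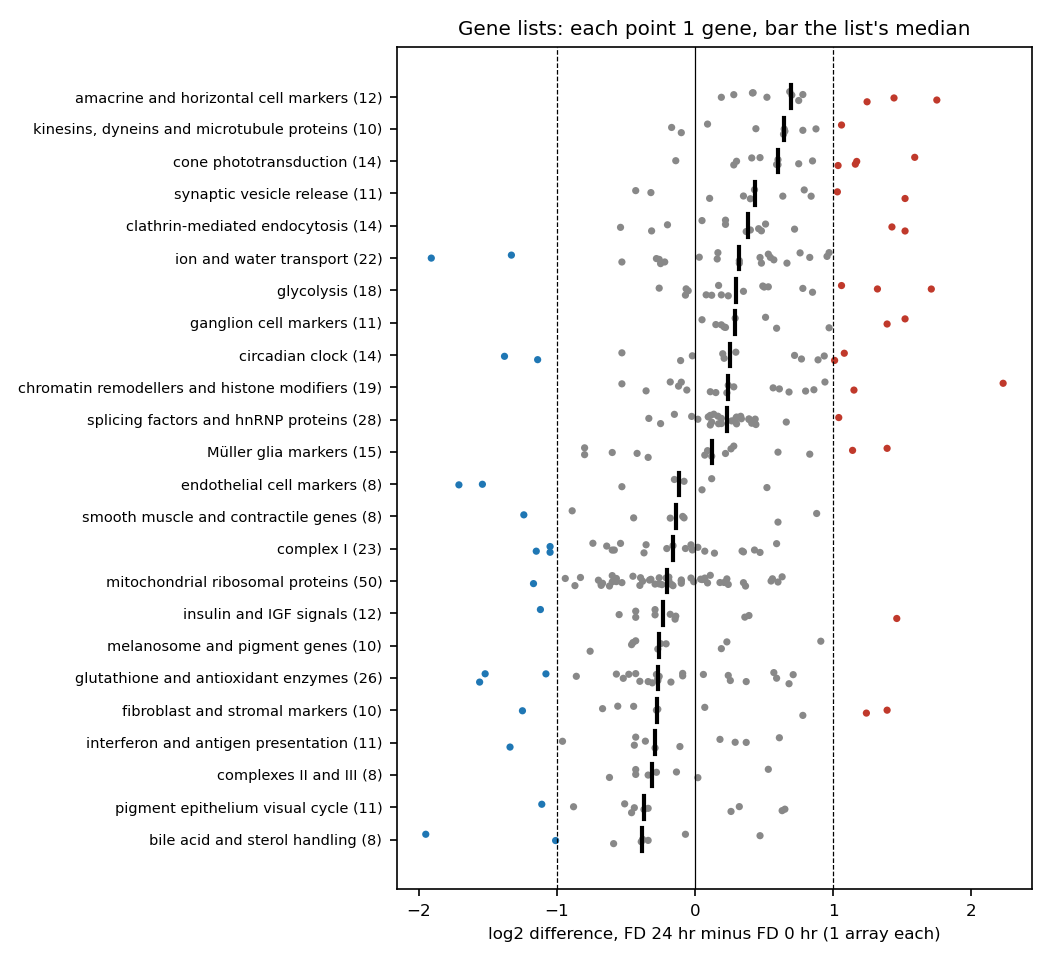
Log2 difference, FD 24 hr minus FD 0 hr, of each gene (point) in 24 gene lists, with the number of genes in brackets and a black bar at the list's median. Points past 1 are red and those past -1 are blue. Most neuronal and cone lists lie to the right and lists of the RPE, of bile acids and of respiratory complexes II and III to the left, with most genes of every list between -1 and 1.

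In energy metabolism, glycolytic genes were mostly higher, while most genes described of respiratory complexes I to III and of mitochondrial ribosomes were lower. Of 18 glycolytic genes 14 were higher, with a median of 0.295, and of 23 measured 17 were, with a median of 0.19. PFKL had 11.05 in control and 8.69, 9.85 and 10.40 after 0, 6 and 24 hr. HK1 (hexokinase 1), which commits glucose to the cell, had 10.82, 8.73, 9.86 and 10.05, though its 3 probe sets ran from 0.08 to 1.40. PKLR, a pyruvate kinase, had 13.20, 12.03, 12.82 and 13.09. The glucose transporter SLC2A1 was at 12.64 at FD 24 hr, against 11.86 at FD 0 hr. The lactate dehydrogenases were close to no difference, with LDHA at 13.27 and LDHB at 13.17 at FD 24 hr, against 13.08 and 13.22 at FD 0 hr.

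Each of the 4 genes described of the pyruvate dehydrogenase complex and its control was lower, against 8 of 14 measured. PDK1, a kinase that inactivates the complex, had 9.60 in control and 9.31, 9.31 and 8.30 after 0, 6 and 24 hr. Its probe sets differed by -1.32 and -0.70. PDK4, its relative induced by fasting, had a difference of -1.51, PDK3 of -0.31 and PDHX of -0.20. For PDK1 the whole difference arose after 6 hr.

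In the respiratory chain, 15 of 23 complex I genes were lower, with a median of -0.16, but of 34 measured 18 were, with a median of -0.025. For complexes II and III, 6 of 8 genes were lower, with a median of -0.31, and 7 of 10 measured. NDUFV3, an accessory subunit, had 10.74 in control and 11.49, 10.77 and 10.44 after 0, 6 and 24 hr. In contrast, NDUFV1, which binds NADH, was at 10.33 at FD 24 hr and 9.74 at FD 0 hr, and UQCRC1, a core subunit of complex III, at 8.915 and 8.385. Of 8 ATP synthase genes, 4 were higher. The β subunit ATP5B was at 11.37 at FD 24 hr and 10.75 at FD 0 hr but at 11.73 at FD 6 hr, so that its difference was -0.36 against FD 6 hr, whereas ATP5H and ATP5J2 were at 11.97 and 6.73 at FD 24 hr, against 12.74 and 7.66 at FD 0 hr. Of 50 mitochondrial ribosomal genes 34 were lower, with a median of -0.20, and of 65 measured 41 were. MRPS12 was at 8.55 at FD 24 hr and 9.72 at FD 0 hr, and MRPL53 at 7.805 and 8.745.

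Of 16 genes of fatty acid oxidation and PPAR, 11 were lower, with a median of -0.245 (19 of 30 measured), led after PDK4 by HADH (8.96 at FD 24 hr and 9.85 at FD 0 hr), an enzyme of β-oxidation. Of 15 genes of cholesterol synthesis 9 were lower, with a median of -0.20, but of 22 measured 11 were, with a median of 0.0075. MSMO1, a sterol oxidase, had 11.38 in control and 12.35, 11.94 and 11.37 after 0, 6 and 24 hr, and HMGCS1 was at 9.59 at FD 24 hr and 10.19 at FD 0 hr. FDFT1 (squalene synthase) went the other way, at 9.56 at FD 24 hr and 8.99 at FD 0 hr. Of 8 genes of bile acid and sterol handling 7 were lower, with a median of -0.385, although all 26 measured had a median of -0.07. Besides AKR1D1, which was under the dim limit at FD 24 hr, the organic anion transporter SLCO1A2 was past 1, at 7.30 at FD 24 hr and 8.31 at FD 0 hr.

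Of 26 glutathione and antioxidant genes, 18 were lower, with a median of -0.27, and of 36 measured 25 were, with a median of -0.225. Catalase (CAT) had 8.09 in control and 9.17, 8.49 and 7.61 after 0, 6 and 24 hr, though its 3 probe sets ran from -1.56 to -0.12. GSTA4, which conjugates lipid peroxidation products, had 7.63, 9.29, 8.20 and 7.77, and MGST1, a microsomal transferase, had 10.22, 11.04, 10.63 and 10.18. Among the 8 higher genes were the mitochondrial superoxide dismutase SOD2 (11.40 at FD 24 hr and 10.81 at FD 0 hr) and GPX3 (10.98 and 10.27). The regulator of this response, NFE2L2, was at 9.275 at FD 24 hr and 9.845 at FD 0 hr.

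Of 22 genes of ion and water transport, 15 were higher, with a median of 0.32 (0.11 over 47 measured), although the pair past 1, CA4 and ATP6V0D2, was lower. KCNJ2, an inward rectifier channel, had 8.66 in control and 7.24, 7.90 and 8.21 after 0, 6 and 24 hr. CA2, the cytosolic carbonic anhydrase, had 11.64, 11.29, 12.11 and 12.12, and ATP2B1, a calcium pump of the plasma membrane, had 8.28, 7.75, 8.495 and 8.705. Against FD 6 hr in place of FD 0 hr, with its genes chosen anew, the median of this list was -0.06. Over the 22 genes described, the median step from 6 to 24 hr was -0.12. In KCNJ2, CA2 and ATP2B1 most of the difference was present by FD 6 hr.

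Genes of the circadian clock differed by -1.38 (NFIL3) to 1.08 (BHLHE41), with 9 of 14 higher and a median of 0.25, and of 23 measured 15 were higher, with a median of 0.21. NFIL3, a repressor of the clock's output genes, had 8.82 in control and 9.16, 10.25 and 7.78 after 0, 6 and 24 hr. ARNTL2, a partner of CLOCK, had 8.61, 9.84, 9.93 and 8.70. The repressors BHLHE41 and CRY2 were higher instead, with 11.13, 10.29, 10.34 and 11.37 for BHLHE41 and 9.74, 9.04, 9.26 and 10.05 for CRY2.

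The nuclear receptors RORA and NR1D2, which activate and repress ARNTL, were both higher at FD 24 hr, at 9.72 and 9.24, than at FD 0 hr, at 8.785 and 8.35. All 3 probe sets of CRY2 and all 5 of NR1D2 were higher. In ARNTL2, BHLHE41, CRY2, RORA and NR1D2 the step from 6 to 24 hr was larger than that from 0 to 6 hr. When FD 6 hr took the place of FD 0 hr and the genes were chosen anew, the list's median was -0.16. Over the 14 clock genes described, the median step from 6 to 24 hr was -0.035. The hour of collection is not given in the sources used here beyond the recovery times.

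**Figure D4:**
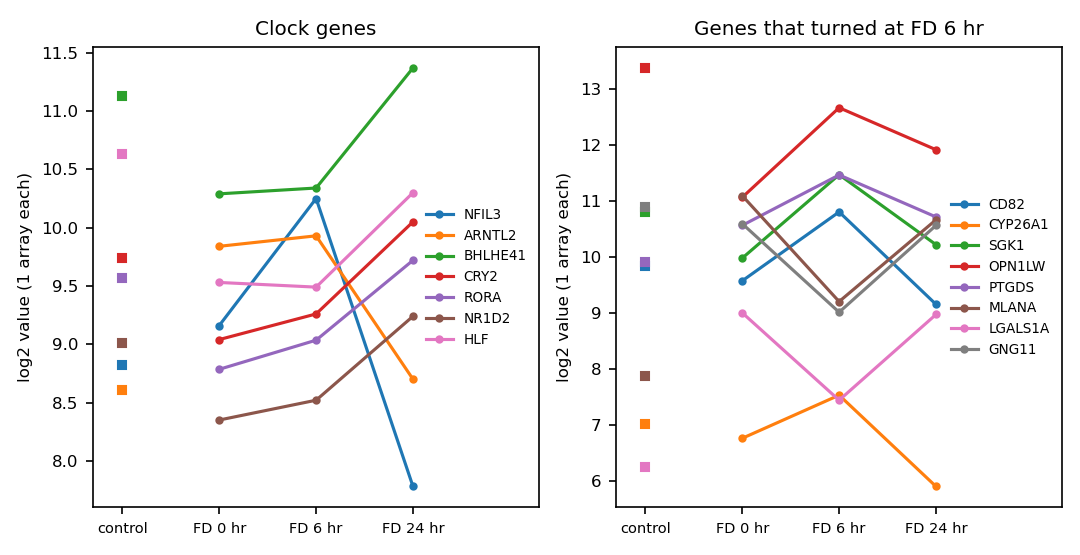
Log2 value on the control array (squares) and at FD 0 hr, FD 6 hr and FD 24 hr (joined points, spaced evenly and not to time) for 7 clock genes and for 8 genes that turned at FD 6 hr. NFIL3 peaks at FD 6 hr, ARNTL2 stays level to FD 6 hr and is lower at FD 24 hr, and the other 5 clock genes reach their highest recovery level at FD 24 hr.

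A small net difference can hide 2 larger steps. In 24 genes the steps from 0 to 6 hr and from 6 to 24 hr were both at least 0.75 and ran in opposite directions. CD82, a tetraspanin, had 9.84 in control and 9.57, 10.80 and 9.15 after 0, 6 and 24 hr. SGK1, a kinase induced by glucocorticoids and osmotic stress, had 10.80, 9.975, 11.465 and 10.215. The red cone pigment OPN1LW had 13.37, 11.06, 12.66 and 11.91. CYP26A1, which breaks down retinoic acid, had 7.01, 6.76, 7.53 and 5.90, so that all 4 were highest in recovery at FD 6 hr.

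Other genes of this kind were lowest at FD 6 hr. MLANA, a melanosome protein, had 7.87 in control and 11.09, 9.20 and 10.66 after 0, 6 and 24 hr, and the galectin LGALS1A had 6.24, 9.0, 7.44 and 8.97. GNG11, a G protein subunit, had 10.88, 10.59, 9.01 and 10.56. Their net differences were -0.43, -0.03 and -0.03. For LGALS1A and MLANA the levels at FD 24 hr stayed above control by 2.73 and 2.79. In control LGALS1A was under the dim limit of 6.28. MLANA is on the Z chromosome, and HINTW was high on the control array. The part of sex in the gap of MLANA to control was not tested.

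Lists of signalling genes showed single genes rather than shared directions. Of 12 insulin and IGF genes 9 were lower, with a median of -0.235, and of 25 measured the median was -0.03. FOXO1, the transcription factor that insulin keeps out of the nucleus, had 7.80 in control and 8.80, 8.39 and 7.68 after 0, 6 and 24 hr, while the receptor IGF1R was higher by 1.46. Of 14 endothelin and vasoactive genes 8 were lower, with a median of -0.2375, led by EDNRA (-1.96), but of 30 measured 16 were, with a median of -0.07. EDNRB, an endothelin receptor, had 6.415, 8.04, 8.265 and 6.665, with both probe sets lower by more than 1 and the whole difference after 6 hr, and the vasodilator adrenomedullin (ADM) was at 7.44 at FD 24 hr and 8.33 at FD 0 hr.

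Of 12 axon guidance genes 9 were higher, with a median of 0.23 that was -0.03 over the 37 measured, and PLXNA2, a receptor for semaphorins, was at 8.64 at FD 24 hr and 7.365 at FD 0 hr (4 probe sets, 0.05 to 1.99) while its ligand-binding partner NRP1 was at 6.49 and 7.365. Of 12 ErbB, FGF and PDGF genes 6 were higher (16 of 41 measured), and of 10 Wnt genes 5 (23 of 43 measured). Of 19 BMP and TGF-β genes 12 were higher, with a median of 0.18 (0.065 over 42 measured), led by ID1, and TGFBR1, a TGF-β receptor, was at 6.19 at FD 24 hr, against 6.90 at FD 0 hr. The activity-induced transcription factor EGR1 was at 8.40 at FD 24 hr and 7.58 at FD 0 hr, with probe sets at 0.44 and 1.20. Of 16 immediate early genes 9 were higher, with a median of 0.13 that was -0.03 over the 28 measured.

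Of 11 interferon genes 7 were lower, with a median of -0.29, but the 30 measured had a median of 0.015. IFI6 had 8.09 in control and 9.97, 8.99 and 8.63 after 0, 6 and 24 hr, and the antiviral GTPase MX1 had 6.33, 7.04, 6.58 and 6.08. Of 14 complement genes 9 were lower, and 14 of 28 measured, but VTN (vitronectin), an inhibitor of the terminal pathway and a matrix protein, was the largest difference, at 11.41 at FD 24 hr, against 9.95 at FD 0 hr. The protease inhibitor TFPI2 was at 9.68 at FD 24 hr and 10.97 at FD 0 hr. Of 15 integrins and tetraspanins 10 were lower, with a median of -0.27, led by CD9, and of 32 measured 20 were, with a median of -0.15. In contrast, ITGB5 and ITGAV, which pair as a vitronectin receptor, were at 8.64 and 7.49 at FD 24 hr, against 7.22 and 6.65 at FD 0 hr.

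Genes that process RNA and chromatin leaned higher. Of 28 splicing factors and hnRNP proteins 24 were higher, with a median of 0.23, and of 56 measured 39 were, with a median of 0.145. The median of 0.23 is smaller than the SD of 0.36 between probe sets of a single gene, which does not measure the spread of a list's median. SFPQ had 8.5 in control and 7.39, 8.13 and 8.43 after 0, 6 and 24 hr, though its 3 probe sets ran from 0.22 to 1.04. Of 19 chromatin genes 13 were higher, with a median of 0.24, and of 73 measured 47 were, with a median of 0.09. EP300, a histone acetyltransferase, was at 7.24 at FD 24 hr and 6.30 at FD 0 hr, TET1, which oxidises methylated DNA, at 7.76 and 6.90, and BRD2, a reader of acetylated histones, at 6.785 and 5.985.

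Cytosolic ribosomal proteins lay close to no difference. Of 43 of them 27 were lower, none by 1, and the median was -0.06. Translation factors divided evenly, with 15 of 30 higher, and 13 of 22 proteasome genes were higher, led by PSMC5 at 10.31 at FD 24 hr and 9.27 at FD 0 hr. Among chaperones, 14 of 20 were higher, with a median of 0.215, and of 34 measured 24 were, with a median of 0.155. HSPA5 (BiP), the chaperone of the endoplasmic reticulum, had 7.40 in control and 7.31, 7.98 and 8.33 after 0, 6 and 24 hr. Its co-chaperone DNAJB9 had 6.89, 7.75, 7.37 and 6.58, with differences of -1.17 to -0.63 on its 3 probe sets. Of 17 cell cycle genes 9 were lower, and of 45 measured 31 were, with a median of -0.10.

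The differences also varied with the chromosome that carried the gene. A chicken genome has a few long chromosomes and many short, gene-dense ones, and chromosomes were taken from RefSeq for GRCg7b by Entrez ID. Of 2137 genes on the long chromosomes 1 to 5 and Z, 39.7% had a positive difference, and their median was -0.13. Of 672 genes on chromosomes 6 to 10, 52.7% were higher, with a median of 0.03. Of 1662 genes on chromosomes 11 and above, 61.9% were higher, with a median of 0.12. On the long chromosomes 32 genes were higher and 94 lower by 1 or more, against 46 and 24 on the short ones.

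Single chromosomes followed this trend with exceptions. The Z chromosome had 67 of 219 genes higher and a median of -0.21, and chromosome 2 a median of -0.19, whereas chromosome 23 had 75 of 91 genes higher and a median of 0.22. Chromosomes 11 and 13, at -0.03 and -0.04, lay below the longer chromosomes 6, 9, 10 and 12, at 0.03 to 0.095. Over the 28 chromosomes with 50 or more of the genes, Spearman's rho between the length of the chromosome, taken as the end of its last gene, and the median difference was -0.88, and Pearson's r with the logarithm of the length was -0.90. These are descriptions of the same pair of arrays, and genes of a chromosome are not independent. The split was present in each of 5 equal bins of genes by level, where 37.3% to 42.0% of genes on long chromosomes and 52.5% to 66.6% of those on short ones were higher.

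Set against control, the split was widest at FD 0 hr. Relative to control, the median of genes on long chromosomes was 0.12, 0.11 and 0.01 after 0, 6 and 24 hr, and that of genes on short chromosomes -0.17, -0.0975 and -0.09. Of the 2137 genes of the long class, 219 were on Z. The W-linked gene HINTW was high on the control array alone, at 9.36. The part of sex in the medians relative to control was therefore not separated, and these medians were not computed without Z. The medians of both classes were closer to each other at FD 24 hr than at FD 0 hr. When each gene was taken relative to the median of its chromosome class, 100 genes were higher and 118 lower by 1 or more, with 81 and 103 shared with the 93 and 136. Under that setting the cone list had a median of 0.725, the amacrine and horizontal cell list 0.73, the bile acid list -0.335 and the antioxidant list -0.165.

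**Figure D5:**
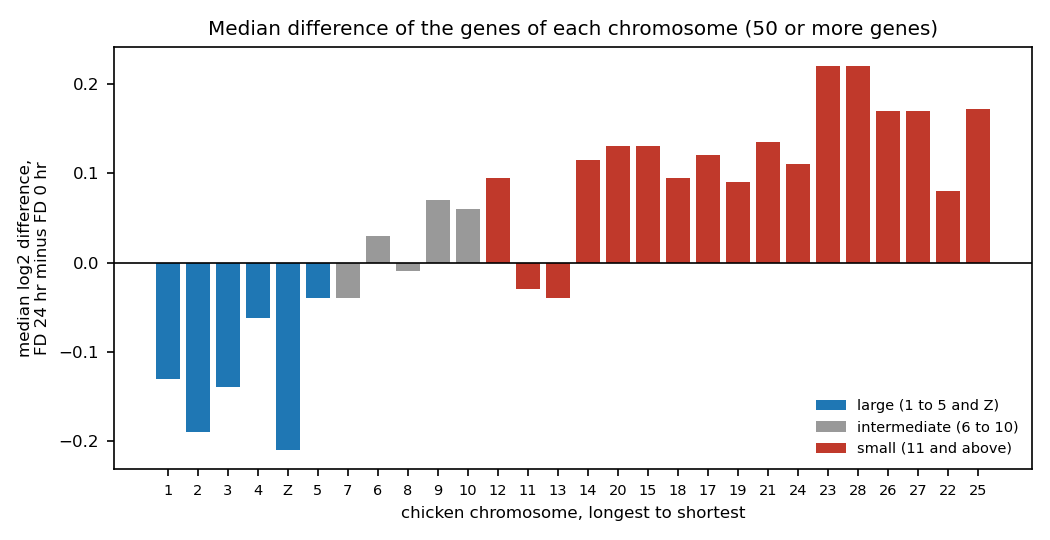
Median log2 difference, FD 24 hr minus FD 0 hr, of the genes of each of the 28 chromosomes with 50 or more genes, ordered from longest to shortest. Bars of chromosomes 1 to 5 and Z lie under 0, and those of chromosome 14 and all shorter ones lie above 0.

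The size of the difference on each probe set limits the weight that a gene can bear. Agreement in direction was required by the rule and adds no support. Of the 93 higher genes, 60 had a single probe set and 33 had 2 or more, and in 3 of these, CALB2, GGT7 and IQSEC3, every probe set was past 1. Of the 136 lower genes, 108 had a single probe set and 28 had 2 or more, and in EDNRB and IL1RL1 every probe set was past 1. IL1RL1 was under the dim limit at FD 24 hr and in control. GGT7, a γ-glutamyltransferase relative, was at 8.565 at FD 24 hr and 7.315 at FD 0 hr. A further 14 genes higher and 12 lower by 1 or more were left aside because their probe sets did not all go the same way.

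Several of the genes named had 4 or more probe sets, and the shared direction of their probe sets was set by the rule. ATCAY (caytaxin), a protein of cerebellar neurons, was higher on all 6 of its probe sets, by 0.30 to 1.94, and was at 7.04 at FD 24 hr and 5.755 at FD 0 hr. ACTB was higher on all 7, by 0.16 to 1.33, and these include the control probe sets of the array. EFNB1, a ligand of Eph receptors, was higher on all 4, by 0.21 to 1.51. On the lower side ATP5J2 was lower on all 5 of its probe sets, with differences of -1.39 to -0.42. CALD1 and SSR1, a subunit of the translocon-associated protein complex, were lower on all 4 of theirs, with differences of -1.36 to -0.49 and of -0.81 to -0.11.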

How the data were processed

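Total RNA from retina, RPE and choroid was pooled by condition and hybridised to Affymetrix chicken arrays, 1 per condition. The authors summarised the arrays by RMA, and the deposited values are log2 expression values with 2 decimals, 1 per probe set. The submitters' processing notes name Affymetrix Expression Console, RMA and MAS5. Per the study's methods, these arrays were pre-processed on their own and also jointly with arrays of an earlier form deprivation study, and the jointly modelled values were presented. Which of these runs was deposited was not established here. No further normalisation was applied. The medians of the 38535 probe sets were 5.73 or 5.74 on each array. RMA itself brings arrays to a common distribution, so these near-equal medians do not show that no more was needed.

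From these values gene medians, differences between arrays and counts past a log2 difference of 1 were computed with Python 3.11.15, NumPy 2.4.6 and pandas 2.3.3, and plotted with Matplotlib 3.10.9. Of the 38535 probe sets, 27178 had 1 gene symbol, 177 several and 11180 none, and 42 symbols given to 2 Entrez IDs were kept apart. RefSeq for GRCg7b, used for names and chromosomes, held 12872 of the 13051 genes. The 70 gene lists hold 2155 symbols, of which 1809 were matched. The members and lists were chosen with earlier results of these data known. Genes were named from the 15 with the largest difference each way, up to 4 per list by absolute difference, the 3 largest each way with 4 or more probe sets and those nearest the dim limit. Genes that turned at FD 6 hr, those past control at FD 24 hr and further list members were chosen after their values were seen. So were the splits by chromosome, level and span. The number of arrays limits the precision, and no test was run. Counting was tested on simulated data. Alternatives were other normalisations, probe set summaries, dim limits and earlier arrays.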

Additional observations from a re-analysis of the deposited data

How the results depend on the processing

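The pooled SD of 0.36 between probe sets was taken as the spread within which a median or a gene counts as the same, and counts within 1.5 times. This SD is a set limit here and holds no variation between arrays. Both counts stayed within 1.5 times of 93 and 136 under quantile normalisation, centring, the mean of the probe sets and the other dim limits. The same held on dropping probe sets designed to match more than 1 transcript. It also held, chosen after seeing the data, without the control probe sets and relative to the median of the chromosome class. RMA had already evened out the arrays, so quantile normalisation and centring could change little and lend no support. The genes past 1 were not all the same. The mean of the probe sets kept 75 of the 93 and 123 of the 136. Dropping probe sets for more than 1 transcript kept 55 and 91. The probe set with the highest mean gave 175 higher and 225 lower genes of 8295, as this setting sets the brightest probe set against the dim limit and drops the demand that probe sets agree. Of the 175 and 225, 69 and 123 were among the 93 and 136. Genes with 2 or more probe sets gave 33 and 28 of 1559.

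With FD 6 hr in place of FD 0 hr, 17 genes were higher and 55 lower, of which 9 and 30 were among the 93 and 136, and with the mean of FD 0 hr and FD 6 hr the counts were 29 and 58. With FD 6 hr, the genes of each list were chosen anew by that difference, so the lists hold partly other genes. The list median was then 0.02 for melanosome genes, -0.06 for ion and water transport, -0.28 for metalloproteinases and -0.16 for clock genes, each of the opposite sign. It was 0.22 for amacrine and horizontal cell markers and 0.18 for kinesins and microtubules. Over the genes described above, the median step from 6 to 24 hr was 0 for melanosome genes and -0.12 for ion and water transport. For metalloproteinases it was -0.0525 and for clock genes -0.035. Of the named genes past 1, GSTA3 (0.63) and ACTB (-0.36) changed sign, and smaller differences that did so include ATP5B (-0.36), CEBPB (-0.26), TYMS (0.23) and PSMD3 (-0.20). The cause was not tested. Other moved medians were those of microtubules (0.255), retinoic acid (-0.50) and collagens (-0.31) with the brightest probe set, of metalloproteinases (-0.55) and clock genes (0.745) with the dim limit at the 75th percentile, and of hypoxia genes (-0.59) with 2 or more probe sets. Of the 276 genes named by rule, 154 moved by more than the spread with FD 6 hr in place of FD 0 hr and 28 with the brightest probe set. Medians were taken for lists with 5 or more genes. No paired analysis was possible because each condition had 1 array. Signal near the background limits what dim genes can show: of 6950, 8 were higher and 31 lower by 1 or more.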
